A study of Homo sapiens with 6 samples.

Results

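The tripartite motif (TRIM) proteins examined here were 10 antiviral or related genes, taken by symbol from the deposited table of read counts. 8 of them are interferon-regulated or restriction factors (TRIM5, TRIM14, TRIM21, TRIM22, TRIM25, TRIM26, TRIM34 and TRIM38), and TRIM27 and TRIM28 served as constitutively expressed contrast. 9 of the 10 symbols had a row among the 26899 genes of the table, and all 9 passed the low-count filter. TRIM34 was not analysed here on its own. The cells were HK-2, a human proximal tubule line immortalised with human papillomavirus 16 and grown in serum-containing medium, sequenced as 3 control-labelled and 3 ANXA2 knockdown-labelled libraries. The control group is called wild type in the titles and shCtrl in the sample descriptions, so the labels leave unsaid whether those cells carried a hairpin. Plasmids were delivered with a lipid reagent. Nothing in the labels tells whether the libraries of a group came from separate cultures, so the p-values measure the spread between these libraries only.

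TRIM proteins combine, in most cases, a RING domain that gives ubiquitin ligase activity with B-box and coiled-coil regions and a C-terminal domain that recognises the target. Type I interferon acts through its receptor on gene transcription, by way of interferon-stimulated response elements near the start of many antiviral genes. Several TRIM genes are induced this way, and their products act either directly on viral components or on the signalling that follows viral RNA and DNA sensing.

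Counted reads per library ranged from 24231267 to 34561675. The targeted gene did not differ past the threshold, with ANXA2 at 1539 ± 21.3 CPM (reads per 1000000 after TMM scaling, SD, n = 3) under the knockdown label and 1598 ± 119 CPM under the control label (edgeR log2 fold change -0.05, SE 0.075, adjusted p 0.848). The 95% interval of ANXA2 ran from -14.33% to 8.286% in percent change, and no tested gene passed the threshold in this fit. The groups are therefore named by their labels, and directions below are differences between labels. The keratins KRT7, KRT8, KRT18 and KRT19 and the renal factors PAX8 and PAX2 were each above 1 CPM, whereas the proximal tubule genes LRP2 and AQP1 had under 10 reads over all 6 libraries. Several TRIM genes are also expressed by leukocytes. Of 10 leukocyte markers, 5 had a row, of which CD14 and CD68 averaged at least 1 CPM and LYZ and SPI1 had under 10 reads in all, and their summed level was 3.81 to 6.602 CPM in the knockdown-labelled libraries and 2.815 to 4.976 CPM in the control-labelled ones. 

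The promoters of the members are shown because interferon response elements were looked for in them. RefSeq entries (GRCh38.p14) existed for 7 of the 10 members, without TRIM22, TRIM27 and TRIM28, and 280 bases were read from each, from 250 bases before the annotated start to 30 bases after it. The sequences run 5′ to 3′ on the strand of the gene. Capitals mark a match to GAAANNGAAA, the core of the response element, or to its 1-base-spaced form GAAANGAAA, on either strand (TTTCNNTTTC or TTTCNTTTC). Both forms were chosen after the values of the members were known, the second also after the sequences had been read. The TRIM34 promoters (chr11:5624751-5625030 and chr11:5632005-5632284, plus strand) were searched in the same way and are not printed. The printed windows were chr17:56914020-56914299 and chr9:98119193-98119472 (both minus strand), chr11:4393673-4393952, chr11:5685045-5685324 and chr6:30213377-30213656 (minus strand) and chr6:25962552-25962831 (plus strand).
TRIM25: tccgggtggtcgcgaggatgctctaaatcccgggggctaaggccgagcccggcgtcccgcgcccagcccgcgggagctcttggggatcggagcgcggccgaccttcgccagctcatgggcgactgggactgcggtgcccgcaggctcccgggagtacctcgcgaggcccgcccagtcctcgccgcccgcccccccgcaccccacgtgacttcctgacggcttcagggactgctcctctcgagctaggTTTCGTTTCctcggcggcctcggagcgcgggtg
TRIM14: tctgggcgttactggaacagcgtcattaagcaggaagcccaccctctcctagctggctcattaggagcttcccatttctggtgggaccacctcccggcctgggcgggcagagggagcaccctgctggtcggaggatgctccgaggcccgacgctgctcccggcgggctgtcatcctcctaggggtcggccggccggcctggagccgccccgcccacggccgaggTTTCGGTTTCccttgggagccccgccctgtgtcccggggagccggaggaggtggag
TRIM21: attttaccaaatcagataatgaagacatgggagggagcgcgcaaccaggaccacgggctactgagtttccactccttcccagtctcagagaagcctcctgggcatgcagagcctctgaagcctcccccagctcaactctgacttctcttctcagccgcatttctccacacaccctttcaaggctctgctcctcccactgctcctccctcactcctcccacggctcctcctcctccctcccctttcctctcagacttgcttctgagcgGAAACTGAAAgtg
TRIM5: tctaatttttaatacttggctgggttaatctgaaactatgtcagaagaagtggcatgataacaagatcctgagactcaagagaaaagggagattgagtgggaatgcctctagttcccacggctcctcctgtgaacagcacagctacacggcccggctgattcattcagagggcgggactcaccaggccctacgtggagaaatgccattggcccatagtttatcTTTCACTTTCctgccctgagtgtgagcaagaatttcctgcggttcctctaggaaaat
TRIM26: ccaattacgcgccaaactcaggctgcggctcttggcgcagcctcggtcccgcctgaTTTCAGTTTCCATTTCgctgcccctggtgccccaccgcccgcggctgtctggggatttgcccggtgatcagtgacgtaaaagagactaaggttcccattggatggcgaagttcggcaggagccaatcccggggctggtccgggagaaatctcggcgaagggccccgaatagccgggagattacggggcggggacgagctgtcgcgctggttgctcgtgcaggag
TRIM38: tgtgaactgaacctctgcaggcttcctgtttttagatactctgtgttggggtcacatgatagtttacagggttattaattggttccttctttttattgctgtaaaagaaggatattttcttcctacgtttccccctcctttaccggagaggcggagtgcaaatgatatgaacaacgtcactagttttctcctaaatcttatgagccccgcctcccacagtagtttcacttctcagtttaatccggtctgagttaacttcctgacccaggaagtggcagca

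GAAANNGAAA occurred in 5 members (TRIM5, TRIM14, TRIM21, TRIM26 and TRIM34), against 3.39% of the 35116 promoters of the same length. The match began 27 bases before the start in TRIM5 and 26 bases before it in TRIM14, and 17 bases after it in TRIM21. TRIM26 held a pair of overlapping matches, the first beginning 194 bases before the start. In TRIM25 only the 1-base-spaced form was found, beginning 3 bases before the start, and TRIM34 held both forms overlapping in 1 of its 2 listed promoters; the 1-base-spaced form was present in 2.96% of promoters. TRIM38 matched neither. A match is a run of letters and not evidence of binding.

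Levels were compared between genes as FPKM, which corrects for transcript length. TRIM28, the KAP1 corepressor recruited by KRAB zinc finger proteins, was the most abundant member at 223.7 ± 15.6 FPKM (SD over the 6 libraries) and exceeded 98.4% of the tested genes. TRIM27, a nuclear and cytoplasmic ubiquitin ligase also known as RFP, followed at 29.91 ± 1.15 FPKM. The interferon-regulated members lay below both. TRIM25 (18.35 ± 3.68 FPKM) and TRIM26 (17.83 ± 1.69 FPKM) overlapped each other across libraries, as did the neighbours TRIM21 (10.15 ± 1.5 FPKM) and TRIM14 (7.91 ± 2.04 FPKM), the neighbours TRIM14 and TRIM38 (4.208 ± 1.06 FPKM), and the neighbours TRIM38 and TRIM5 (3.467 ± 0.355 FPKM). TRIM22 stood lowest at 0 to 0.27 FPKM, above 3.21% of the tested genes only. HK-2 cells thus held transcripts of 6 interferon-regulated members at over 3 FPKM in every library, with TRIM22 near the limit of detection.

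In order to examine whether the members differed between the labels, all 15299 genes that passed the filter entered 1 quasi-likelihood fit in edgeR, and p-values were adjusted over all of them. TRIM25 and TRIM14 were higher in every library labelled knockdown than in any labelled control, by 1.4-fold and 1.439-fold. The other 5 tested interferon-regulated members and both constitutive members overlapped between the groups. None of the 9 members passed an adjusted p of 0.05 in edgeR, where 0% of all tested genes did. DESeq2 and limma-voom called none of the 9 either, while they called 31 and 0 genes in all. At an unadjusted p under 0.05 there were 2 of 9 members, both higher, against 8.18% of all genes. The groups did not overlap for the same 2 of 9 members, against 15.6% of all genes (7.94% higher and 7.7% lower), so the count alone did not set the members apart. The median log2 fold change was 0.25 over the 7 tested interferon-regulated members, which is the estimate of the middle gene, TRIM21. It was 0.04 over the 2 constitutive members, against -0.01 over all tested genes.

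**Figure D1:**
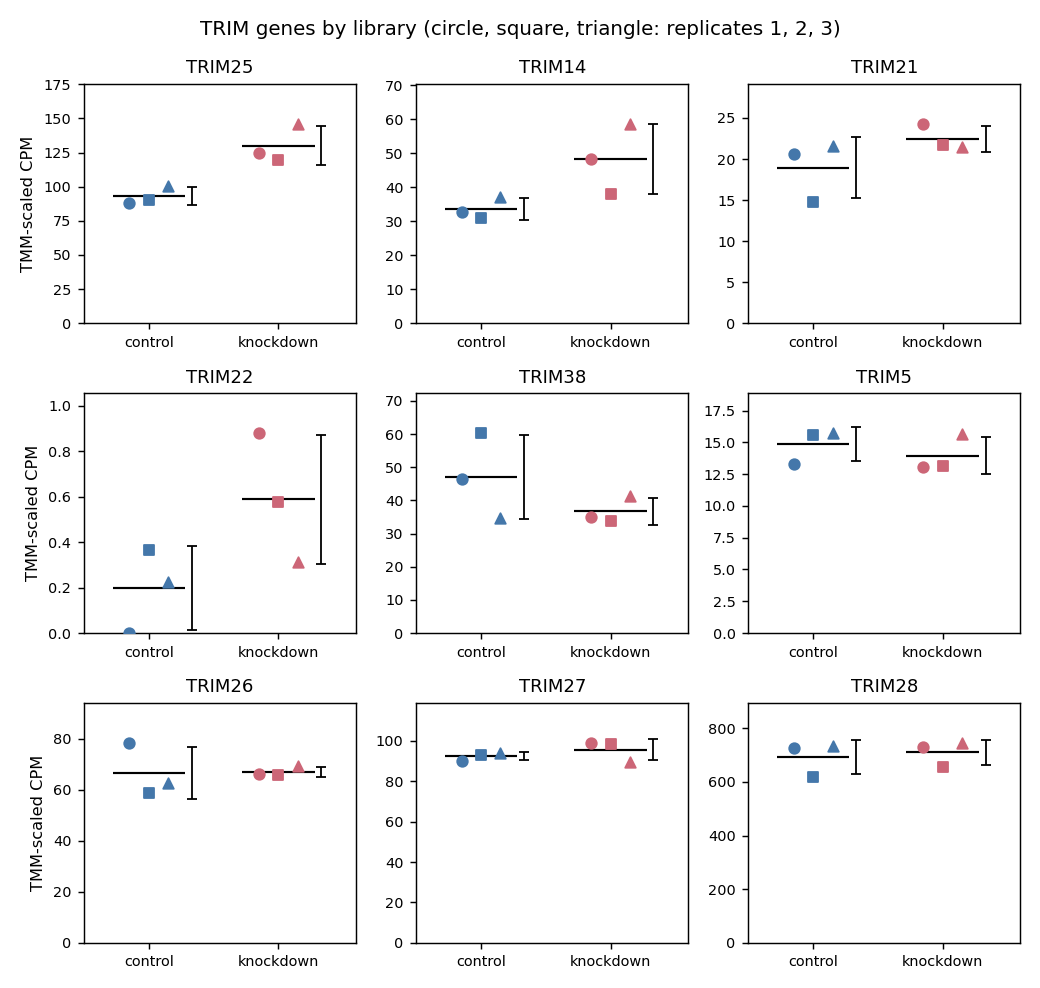
TMM-scaled CPM (linear axis from 0) of the 9 members with a row, in each library labelled control (blue) or labelled knockdown (red), with the group mean (line) and SD (bar to the right, n = 3). TRIM25 and TRIM14 are the members whose groups do not overlap, and TRIM22 stays under 1 CPM in every library.

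TRIM25 is a RING ubiquitin ligase linked to activation of the RNA sensor RIG-I and is a cofactor of the antiviral protein ZAP. The gene (ENSG00000121060.14) spans chr17:56836387-56914080 on the minus strand of GRCh38. The knockdown-labelled libraries held 4244, 3956 and 4222 TRIM25 reads in replicates 1, 2 and 3, and the control-labelled ones held 2148, 2948 and 3136. After scaling these were 124.4, 119.8 and 146.2 CPM against 88.06, 90.19 and 100.7 CPM. Each library labelled knockdown thus lay above all 3 labelled control, with knockdown replicate 3 highest. In bulk RNA more cells with the transcript and more transcript per cell cannot be told apart. The means were 130.1 ± 14.1 and 92.97 ± 6.75 CPM (SD, n = 3), and the edgeR log2 fold change was 0.48 (SE 0.11, 95% interval 0.24 to 0.73, unadjusted p 0.00164, adjusted p 0.599). It ranked 39 among the 15299 genes by p. The exact two-sided permutation p was 0.1, the smallest that 3 against 3 libraries can give. Without the low-count filter edgeR gave TRIM25 an adjusted p of 0.019, and omitting 1 library moved its estimate to between 0.39 (knockdown replicate 3 omitted) and 0.55 (control replicate 3 omitted).

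TRIM14 lacks a RING domain and acts as an adaptor at mitochondria, where it joins the MAVS signalling complex. The gene (ENSG00000106785.14) spans chr9:98069275-98119222 on the minus strand. Its reads were 1643, 1255 and 1694 in the knockdown-labelled libraries and 794, 1010 and 1157 in the control-labelled ones. In CPM these were 48.15, 38.01 and 58.67 against 32.55, 30.9 and 37.14. The groups did not overlap, although knockdown replicate 2 lay less than 1 CPM above control replicate 3. The means were 48.28 ± 10.3 and 33.53 ± 3.24 CPM (SD, n = 3). In edgeR the log2 fold change was 0.53 (SE 0.162, 95% interval 0.16 to 0.89, unadjusted p 0.00975, adjusted p 0.599), and the exact permutation p was 0.1. Without knockdown replicate 3 the estimate was 0.36, and without the low-count filter the adjusted p was 0.0372.

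Some exons of these genes share bases with neighbours, and the sources used here do not give whether counting used strand. For TRIM14, 422 of its exonic bases (7.699%) lie opposite exons of NANS, whose own log2 fold change was -0.19 (adjusted p 0.615). For TRIM25, 538 exonic bases (4.333%) lie opposite the long non-coding RNA ENSG00000262112, 132 are shared with C17orf67 and 86 with MIR3614 on the same strand, and 80 lie opposite DGKE. The log2 fold changes of C17orf67 and DGKE were 0.18 and 0.02. Their part in the values of TRIM14 and TRIM25 was not tested.

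To compare the members with TRIM28 without any scaling between libraries, reads were taken per 1000 TRIM28 reads of the same library. For TRIM25 this gave 170.1, 182.7 and 196.5 in the knockdown-labelled libraries and 121, 145.6 and 137.5 in the control-labelled ones, again with no overlap (exact permutation p 0.1). For TRIM14 it gave 65.87, 57.96 and 78.83 against 44.73, 49.88 and 50.73, also with no overlap (exact permutation p 0.1). Against TRIM27 as denominator TRIM25 stayed separated (1215 to 1634 against 969.1 to 1070 per 1000 TRIM27 reads), while TRIM14 overlapped (385.4 to 655.6 against 332 to 394.6, exact permutation p 0.2). The ratios of the other 5 members overlapped between the groups with either denominator. These ratios reuse the reads already compared above, so they are not separate evidence of a difference. The share of all genes separated in such ratios was not computed.

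**Figure D2:**
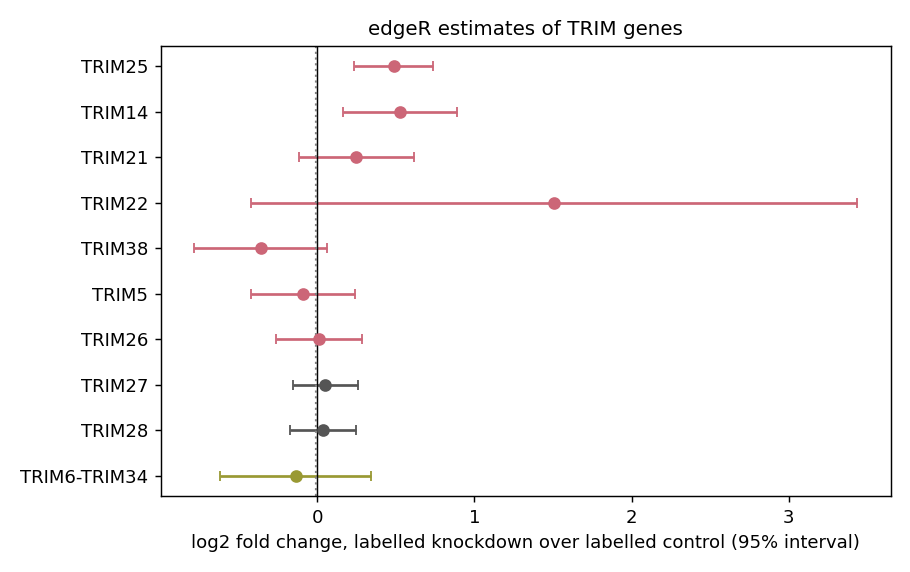
edgeR log2 fold change (point) and 95% interval (bar) of each member and of the readthrough gene TRIM6-TRIM34, with the median of all tested genes dotted at -0.01. The intervals of TRIM25 and TRIM14 lie above 0 before adjustment, those of TRIM27 and TRIM28 are the narrowest around 0, and that of TRIM22 spans -0.42 to 3.44.

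TRIM21 is a cytosolic Fc receptor that directs antibody-coated virus to degradation (ENSG00000132109.9, chromosome 11 from 4384897 to 4393702, minus strand). It reached 24.32, 21.71 and 21.44 CPM in the knockdown-labelled libraries and 20.58, 14.72 and 21.54 CPM in the control-labelled ones. Control replicate 2 was the low library, and the groups overlapped by the closeness of control replicate 3 to knockdown replicate 3. The edgeR log2 fold change was 0.25 (SE 0.163, adjusted p 0.686), and it was 0.10 without control replicate 2.

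TRIM22 is among the interferon-induced TRIM genes and restricts several viruses, partly in the nucleus (ENSG00000132274.15, chromosome 11 from 5689610 to 5737089, plus strand). The knockdown-labelled libraries held 30, 19 and 9 reads and the control-labelled ones 0, 12 and 7. The count of 0 in control replicate 1 allows up to 3 reads, or 0.123 CPM, at its depth. The 58 reads against 19 corresponded to 0.5887 ± 0.284 and 0.1973 ± 0.185 CPM (SD, n = 3), and knockdown replicate 3 lay below control replicate 2. The edgeR log2 fold change of 1.51 had a SE of 0.856 and an adjusted p of 0.643. It was 0.99 when control replicate 1 was omitted and 2.27 when control replicate 2 was, and 0.15 on log2(FPKM + 1), so the size of a difference could not be fixed at this depth.

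TRIM38 is known chiefly as a negative regulator of Toll-like receptor and cytokine signalling (ENSG00000112343.10, chromosome 6 from 25962802 to 25991231, plus strand). Its values were 35.08, 33.71 and 41.32 CPM under the knockdown label and 46.45, 60.21 and 34.73 CPM under the control label. The control libraries were widely spread, from the highest to nearly the lowest of the 6. Its log2 fold change was -0.36 (SE 0.188, 95% interval -0.78 to 0.06, adjusted p 0.631), -0.14 without control replicate 2 and -0.54 without control replicate 3. TRIM38 and TRIM5 were the interferon-regulated members with estimates below 0.

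TRIM5, which binds and disrupts incoming retroviral capsids, showed 13.04, 13.17 and 15.66 CPM in the knockdown-labelled libraries and 13.32, 15.57 and 15.7 CPM in the control-labelled ones (ENSG00000132256.18, chromosome 11, minus strand, 5663195 to 5938619). Its log2 fold change was -0.09 (SE 0.147, adjusted p 0.869), with a 95% interval of -25.49% to 18.07% in percent change. TRIM26, a ubiquitin ligase encoded in the major histocompatibility region of chromosome 6 (ENSG00000234127.8, 30184455 to 30213427, minus strand), showed 66.08, 65.81 and 69.44 CPM against 78.26, 58.89 and 62.7 CPM. Its estimate of 0.01 (SE 0.122, adjusted p 0.984) changed sign with library-size scaling. The groups overlapped for both genes, for TRIM5 only through knockdown replicate 3, since the other two knockdown-labelled libraries lay below every control-labelled one. For TRIM26 a difference beyond -16.74% or 22% lay outside the 95% interval.

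TRIM34 is an interferon-induced relative of TRIM5 in the same cluster of chromosome 11. Its nearest measured transcript was the readthrough gene TRIM6-TRIM34 (ENSG00000258588.3, 5596725 to 5644398, plus strand), which holds 83.57% of the exonic bases of TRIM34 in GENCODE 44, so its reads cannot be assigned to TRIM34 alone. It had 137, 158 and 118 reads in the knockdown-labelled libraries and 134, 147 and 131 in the control-labelled ones. These were 4.296 ± 0.425 and 4.732 ± 0.675 CPM (SD, n = 3), overlapping, with a log2 fold change of -0.14 (SE 0.213, adjusted p 0.866). TRIM6, which shares 29.21% of its exonic bases with the readthrough, had 1.902 ± 0.663 and 2.964 ± 0.483 CPM (log2 fold change -0.64, SE 0.322, adjusted p 0.623), also overlapping. TRIM68, a neighbour of TRIM21, had 8.405 ± 0.463 and 9.324 ± 1.48 CPM (log2 fold change -0.15, adjusted p 0.819).

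The constitutive members gave the contrast. TRIM27 (ENSG00000204713.10, chromosome 6 from 28903002 to 28923988, minus strand) showed 98.81, 98.61 and 89.5 CPM in the knockdown-labelled libraries and 90.06, 93.06 and 94.12 CPM in the control-labelled ones. Its log2 fold change was 0.05 (SE 0.0916, adjusted p 0.889), and a change outside -10.31% to 19.41% lay beyond its 95% interval. TRIM28 (ENSG00000130726.11, chromosome 19 from 58544064 to 58550722, plus strand) showed 730.9, 655.7 and 744.3 CPM against 727.7, 619.4 and 732.1 CPM. Replicate 2 was the lowest library of either group. Its log2 fold change of 0.04 (SE 0.0937, adjusted p 0.929) became -0.04 without control replicate 2, and its interval ran from -11.47% to 18.65%.

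The members were next set beside 23 tested genes that are standard reporters of type I interferon signalling, a list written with earlier results of these data known. Of these genes, 22 had estimates above 0 and 18 did not overlap between the groups, with a median log2 fold change of 1.26. None passed an adjusted p of 0.05 in edgeR, and 21 had an unadjusted p under 0.05. Their mean level was 3.941, 3.57 and 4.568 log2 CPM in knockdown replicates 1, 2 and 3 and 2.622, 2.308 and 2.49 log2 CPM in control replicates 1, 2 and 3. Among the knockdown-labelled libraries TRIM25 and TRIM14 had the order of that list, highest in replicate 3 and lowest in replicate 2. TRIM26, TRIM38 and the constitutive TRIM28 had that order too (69.44, 41.32 and 744.3 CPM in replicate 3), so it was not particular to TRIM25 and TRIM14, whereas TRIM21, TRIM22 and TRIM27 were lowest in replicate 3. Among the libraries labelled control TRIM25 and TRIM14 were highest in replicate 3, and the list was highest in replicate 1. The point estimates of the TRIM members, apart from TRIM22, lay between -0.36 and 0.53 and thus under that median; the difference between the lists was not tested.

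**Figure D3:**
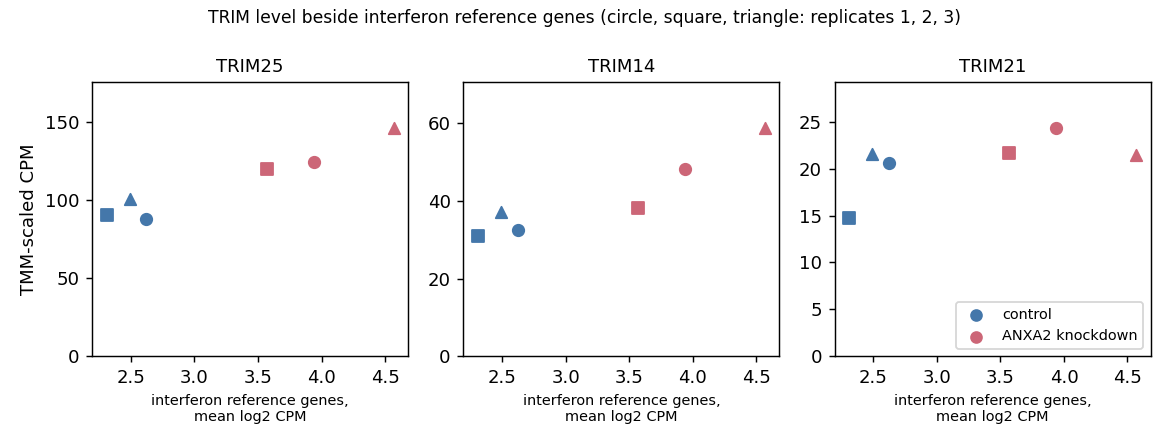
TMM-scaled CPM of TRIM25, TRIM14 and TRIM21 (vertical axes from 0) against the mean log2 CPM of 23 interferon reference genes in the same library, for libraries labelled control (blue) and labelled knockdown (red). The knockdown-labelled libraries lie to the right, from 3.57 to 4.568, and TRIM25 and TRIM14 are highest in the library where the reference genes are highest, as is the constitutive TRIM28, which is not drawn.

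Genes that work with the TRIM proteins were examined as a list of 36 tested genes, covering RNA and DNA sensors, their adaptors and kinases, ubiquitin conjugating enzymes, ISG15 and the partners of TRIM28. Signs were evenly divided, with 18 estimates above 0 and 18 below 0 and a median log2 fold change of 0.00. None passed the adjusted threshold in edgeR. At an unadjusted edgeR p under 0.05 there were 6 higher and 3 lower of the 36, against 8.18% of all tested genes in either direction. The groups were separated for 6 higher and 4 lower, against 7.94% and 7.7% of all tested genes. ISG15, IRF7 and DDX58 also belong to the list of interferon reporters above, so the lists are not independent. By the naming rule the 3 with the smallest p were IFIH1, ISG15 and UBE2L6. IFIH1, the RNA sensor MDA5, had 10.71 ± 1.75 against 4.232 ± 0.107 CPM (log2 fold change 1.34, SE 0.185, adjusted p 0.156). ISG15, the ubiquitin-like modifier for which TRIM25 can serve as a ligase, had 43.19 ± 15.6 against 14.42 ± 1.76 CPM (1.58, SE 0.242, adjusted p 0.16). UBE2L6, its conjugating enzyme, had 72.88 ± 5.04 against 50.56 ± 2.29 CPM (0.53, SE 0.101, adjusted p 0.419).

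Direct partners of single members are given as well, chosen after their values were seen. DDX58, encoding RIG-I, had 10.62 ± 1.77 CPM in the knockdown-labelled libraries and 7.96 ± 0.693 CPM in the control-labelled ones, separated between the groups (log2 fold change 0.42, SE 0.178, adjusted p 0.608). ZC3HAV1, encoding ZAP, had 71.63 ± 1.88 and 69.37 ± 9.2 CPM (0.05, adjusted p 0.92). MAVS, which TRIM14 joins, had 128.3 ± 7.4 and 144.5 ± 3.11 CPM (-0.17, SE 0.0899, adjusted p 0.631), separated in the opposite direction to TRIM14. SETDB1, the methyltransferase recruited by TRIM28, had 41.92 ± 6.51 and 40.42 ± 1.34 CPM (0.05, adjusted p 0.923).

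Among the rest of the TRIM family, including PML, MID1, MID2 and MEFV under their own symbols, 50 genes had a row and 38 were tested. 20 had estimates above 0 and 18 below 0, with a median log2 fold change of 0.02. None passed the adjusted threshold in edgeR. An unadjusted edgeR p under 0.05 was reached by 0 higher and 4 lower genes of the 38, against 8.18% of all tested genes. The groups were separated for 3 higher and 5 lower genes, against 7.94% and 7.7% of all tested genes. TRIM59, TRIM45 and TRIM37 had the smallest p. TRIM59 had 35.28 ± 4.81 against 50.33 ± 7.62 CPM (log2 fold change -0.51, SE 0.146, adjusted p 0.599). TRIM45 had 2.487 ± 0.392 against 4.297 ± 0.942 CPM (-0.78, SE 0.267, adjusted p 0.599), and TRIM37 had 22.46 ± 4.49 against 30.37 ± 5.52 CPM (-0.44, SE 0.182, adjusted p 0.605). PML, an interferon-regulated family member named after its values were seen, had 239.2 ± 80.8 against 168.3 ± 79 CPM and overlapped between the groups (0.51, SE 0.337, adjusted p 0.686).

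**Figure D4:**
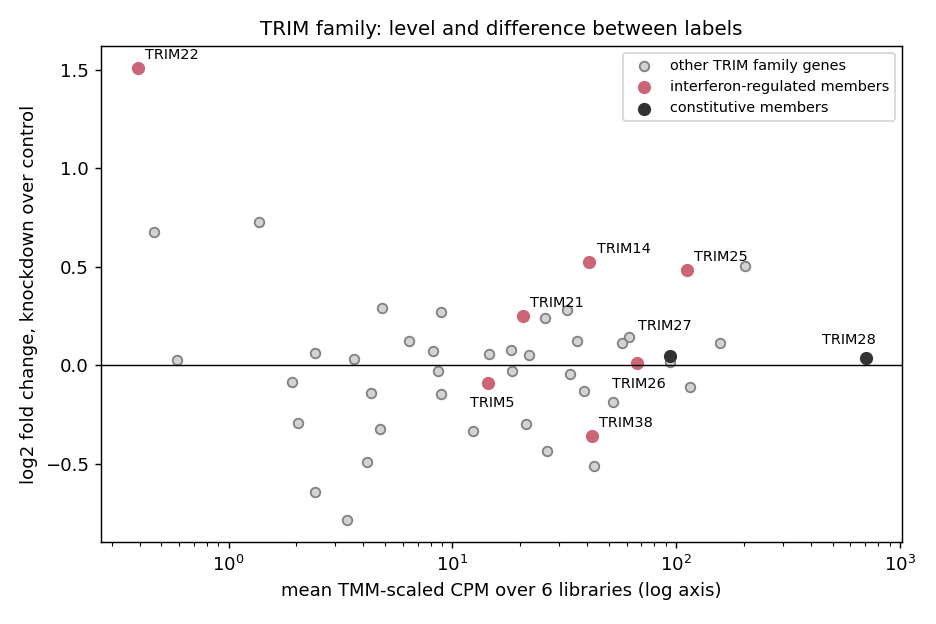
log2 fold change (vertical axis) against mean TMM-scaled CPM over 6 libraries (log axis) for 7 interferon-regulated members (red), 2 constitutive members (black) and 38 other tested TRIM family genes (grey). The other family genes scatter on both sides of 0, from -0.78 to 0.73, and TRIM14 and TRIM25 lie at 0.53 and 0.48.

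Genes with the pattern most like the mean of the interferon-regulated members were sought among 10532 tested genes with a mean of at least 5 CPM. The measure was Pearson's r over the 6 libraries with the mean standardised log2 CPM of the 7 tested members. Each member had equal weight in that mean, TRIM22 near the limit of detection included. Between these members r ran from -0.895 (TRIM21 with TRIM38) to 0.946 (TRIM25 with TRIM14), so the mean was not a pattern that they shared. The measure is given as a description only, since all genes are compared over the same 6 libraries, 3 under each label. EXOSC5 (r = 0.996), LTBR (r = 0.995) and SIRT6 (r = 0.986) were the closest. Their own log2 fold changes were 0.34, 0.16 and 0.35.

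With 1 library omitted there are fewer values to overlap, so the number of separated genes tends to rise. Over all tested genes 15.6% did not overlap with all 6 libraries, and 19.9% to 31.7% did not in the omissions. Without knockdown replicate 3 the groups did not overlap for 6 members (TRIM14, TRIM21, TRIM22, TRIM25 and TRIM27 higher, TRIM5 lower), where 29.5% of all tested genes did not overlap. Without control replicate 3 this held for 4 members (TRIM14, TRIM21 and TRIM25 higher, TRIM38 lower), against 27% of all tested genes. The remaining omissions separated 2 or 3 members. TRIM14 and TRIM25 were separated in all 6 omissions of 1 library. That largely followed from their separation with all 6 libraries, since an omission only removes values and rescales the rest.

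**Figure D5:**
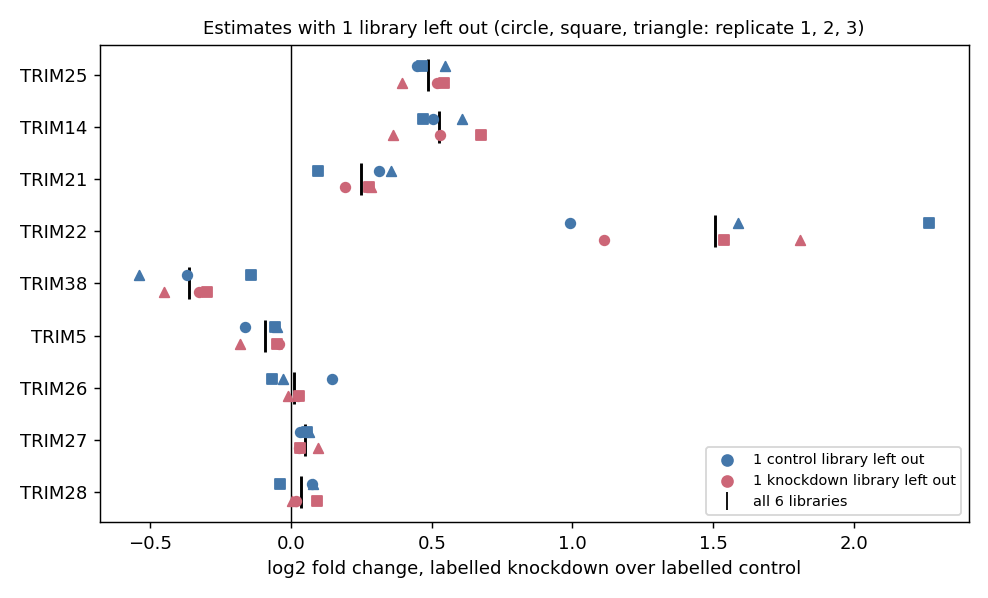
edgeR log2 fold change of each member with all 6 libraries (black bar) and with 1 library labelled control (blue) or labelled knockdown (red) left out, the symbol giving the replicate. TRIM25 stays between 0.39 and 0.55 and TRIM14 between 0.36 and 0.67, whereas TRIM22 moves from 0.99 to 2.27 and TRIM26 and TRIM28 change sign.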

How the data were processed

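HK-2 polyadenylated RNA was read from 3 control-labelled and 3 knockdown-labelled samples. The authors deposited raw read counts per gene (26899 genes) and FPKM values rounded to 2 decimals (26803 genes). The submitters' processing notes name bcl2fastq, TopHat2, edgeR and GRCh38, and the counter, annotation and strand setting are not given in those sources. Replicates were not duplicates, since their counts differed by a chi-square per degree of freedom of at least 9.637.

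Differences in counts were fitted by edgeR 4.0.16 (quasi-likelihood F test, R 4.3.3) with TMM scaling, factors 0.9868 to 1.021, no covariates and the default filter (minimum count 10, total 15), and adjusted by Benjamini-Hochberg over 15299 genes. CPM used the reads of the tested genes. The reference and partner lists of genes and the members were chosen with earlier results of these data known. Named genes outside the members were the 3 with the smallest p of each list at a mean of at least 1 CPM, ANXA2, TRIM6, TRIM6-TRIM34 and TRIM68, and the 3 of most similar pattern; others were named after their values were seen. The alternatives were 3 other scalings, no filter, DESeq2 1.42.0, limma-voom (limma 3.58.1), limma on log2 FPKM (pseudocounts 1 and 0.1), a replicate block and omission of each library. Scripts were tested on simulated data. Gene positions and shared exons came from GENCODE 44 (IDs matched without version), promoters from RefSeq.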

Additional observations from a re-analysis of the deposited data

How the results depend on the processing

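Over the 15299 tested genes, the number with an adjusted p under 0.05 was 0 in edgeR (1251 before adjustment). It was 165 in edgeR without the low-count filter, where every gene with any read was tested. DESeq2, also run without that filter, gave 31. When 1 library was left out edgeR gave 0 to 4, the 4 arising without knockdown replicate 2. Of the 9 members, 2 passed without the low-count filter (TRIM14 and TRIM25) and 0 under each of the other 14 alternatives. The number of members whose groups did not overlap was 2, and 2 to 6 when 1 library was left out. The share of all tested genes rose likewise, from 15.6% to between 19.9% and 31.7%. The median of the interferon-regulated members stayed above 0 under all 15 alternatives, with the lowest value, 0.097, when control replicate 2 was omitted and the highest, 0.354, when control replicate 3 was. In the main fit and in both of these omissions the median was the estimate of the middle gene, TRIM21, whose groups overlapped with all 6 libraries. Of 135 member estimates under alternatives, 128 were on the same side of 0 and of the threshold as reported, 2 came to pass the threshold and 5 changed sign. The changes of sign concerned TRIM26, at -0.0116 with library-size scaling and -0.0685 to 0.144 when 1 library was left out, and TRIM28, at -0.0377 to 0.0934 in those omissions, and the cause was not tested.

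Same-numbered libraries of the groups did not deviate together (correlations -0.109, 0.196 and -0.292 for numbers 1, 2 and 3), so the numbers were not taken to pair them. With a replicate block TRIM25 had a log2 fold change of 0.482 (adjusted p 0.693) and TRIM14 of 0.508 (adjusted p 0.693), and 0 genes passed. Depth limited TRIM22, with 0 to 30 reads per library.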
